A study of Mus musculus with 8 samples.

Results

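The comparison set posterior pieces of mouse embryos homozygous for a mutant Gcnf allele (Gcnf-/-) against posterior pieces of wild-type embryos. It used 4 of the 8 libraries of the study, 2 for each genotype, numbered 159 and 163 in the mutant and 153 and 156 in the wild type. All embryos were at stage E9.25 with 9 to 11 somites, and a posterior piece held the tissue from the second pharyngeal arch backwards. The other 4 libraries held the front pieces of the same stage and genotypes. The sources used here give neither the allele nor the strain nor the number of embryos in a library. The mutant libraries differed in sex, as given below, and so came from different embryos. For the wild-type pair the sources do not say this, and its spread may be technical. Poly-A RNA was sequenced, and expression was given as TPM, a transcript abundance that divides reads by gene length and gives every library the same sum. Of 55421 identifiers in the deposited table, the 15634 with at least 1 TPM in at least 2 of the 4 posterior libraries were tested.

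Gcnf (germ cell nuclear factor), the product of Nr6a1, is a nuclear receptor without a known ligand that represses its targets, among them the pluripotency gene Pou5f1, as the embryo leaves the pluripotent state. At this stage the body is laid down from head to tail: progenitors in the tail bud feed the spinal cord and the presomitic mesoderm, which segments into somites. Hox genes, which lie in 4 clusters and are numbered by paralogue group from the 3′ to the 5′ end, mark position along this axis, with groups 1 to 5 toward the head, 6 to 9 in the trunk and 10 to 13 toward the tail. A piece that starts at the second arch also holds the heart, vessels, blood and gut tube, and can carry yolk sac.

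The 4 posterior libraries held between 27064113 and 52957993 reads in genes, and 3 reads in a transcript of 1 kb gave between 0.2 and 0.403 TPM, limits that cover counting error only. Across the tested genes log2 values of the 2 mutant libraries correlated with r = 0.983, those of the 2 wild-type libraries with r = 0.992, and those of mutant and wild-type libraries with r between 0.964 and 0.975, where genes are not independent replicates. Xist stood at 30.9 TPM in mutant library 159 and between 0.0225 and 0.0476 in the others, while the Y-linked Ddx3y was at 0.0768 in that library and between 26.4 and 39.4 in the others. Sex therefore differed within the mutant pair, and genes of the X and Y chromosomes were left out of the largest changes. They were kept in the counts and lists, such as the X-linked Cdx4, Pou3f4, Alas2, Gata1 and Nr0b1. Of the genes that passed the threshold, 52 lay on these chromosomes, and a part of sex in their values was not tested. Nr6a1 itself (ENSMUSG00000063972) measured 158 TPM in mutant library 159, 116 in mutant library 163, 157 in wild-type library 153 and 165 in wild-type library 156, a difference of -0.25 ± 0.16 (adjusted p = 0.4). The labels do not say which part of the gene the allele removes, so these values do not check the genotype. The labelled tissue was checked by its markers: the lowest of the 4 libraries held 62.5 TPM of the trunk gene Hoxb9 and 113 TPM of the tail bud gene Tbxt. Of 18 markers of forebrain, midbrain and their boundary 9 were tested and 9 were too low. The 18 summed to between 23.9 and 33.5 TPM in the 4 libraries. Since only 15634 of all 55421 identifiers were tested, this count does not show that head tissue was absent.

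Below, a pair of TPM values for the mutant is in the order of libraries 159 and 163 and a pair for the wild type in the order of 153 and 156. A change is the difference of log2(TPM + 1), mutant minus wild type, ± its standard error, which understates the change of low genes. A gene is called, and is said to have risen or fallen, where limma's Benjamini-Hochberg adjusted p over all 15634 genes was under 0.05. In total 1526 genes were called (9.76%). These were 1192 rises (7.62% of the genes tested) and 334 falls (2.14%), and 539 rises and 153 falls were at least 2-fold. Rises made up 78.1% of the calls as deposited, 67.2% of 1029 calls when TPM were rescaled by median-of-ratios and 66.5% of 903 calls with quantile normalization. With a single wild-type library left in the fit the count was 85 without library 153 and 215 without library 156, against 2246 without mutant library 159 and 2094 without 163. Most gene lists below are therefore also given for the first pair of fits, and several for the second pair. The words "without either wild-type library" stand for both fits of the first pair, each with 1 library left out. Lists share some genes, and bulk tissue cannot tell fewer cells of a type from less RNA in each cell. A gene under 1 TPM in both wild-type libraries passed the filter only through the mutant and could only be higher there. This held for 457 of the genes tested, and the reverse for 192.

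**Figure D1:**
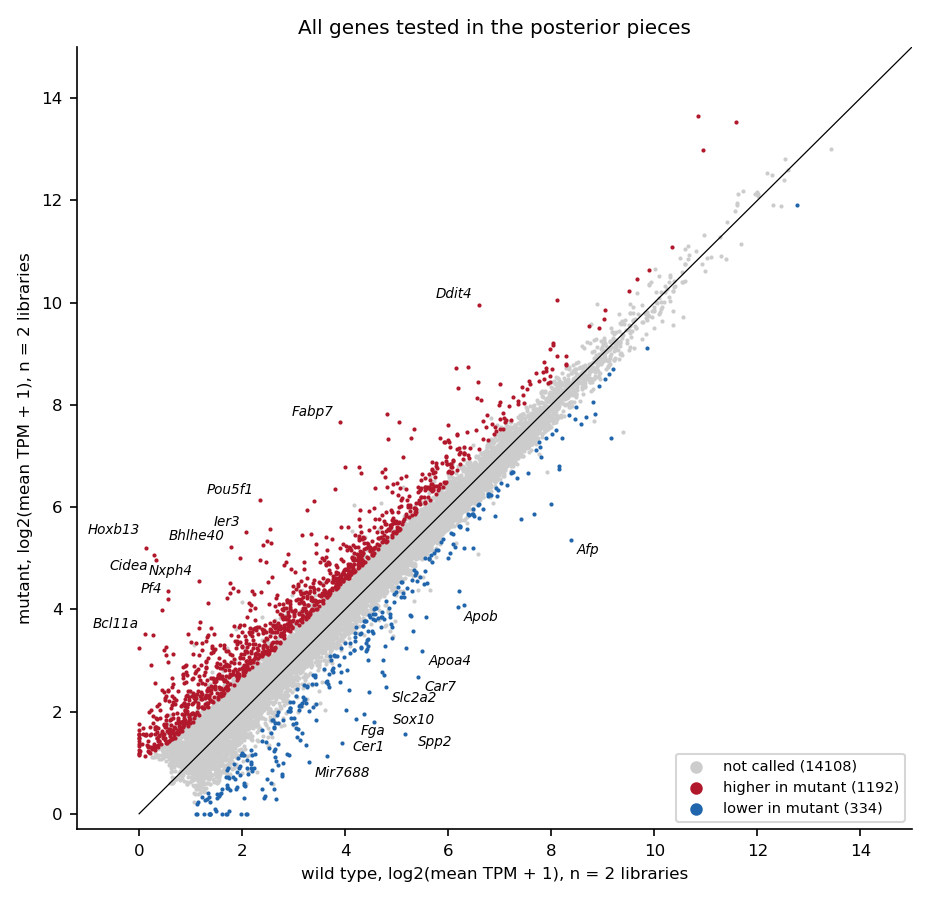
Each point is a tested gene, with the log2 of its mean TPM plus 1 in the 2 wild-type libraries on the x axis and in the 2 mutant libraries on the y axis; red and blue points passed the threshold and the line marks equal values. The 1192 rises outnumber the 334 falls, and the 10 largest of each are named.

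The 10 largest rises brought together a tail Hox gene, pluripotency, neural, fat and stress genes. Among them, Hoxb13, Cidea, Pf4 and Bcl11a passed the filter only through the mutant libraries, so each could only be higher there. Hoxb13, which ends the Hoxb cluster on its 5′ side, was at 38.8 and 32.1 TPM in the mutant and at 0.122 and 0.0645 in the wild type (5.05 ± 0.18, adjusted p = 2.5e-06). Cidea, a protein of lipid droplets, was at 32.8 and 31.7 against 0.121 and 0.319 TPM. Both were near 0 in the wild type, so the size of these differences depends on the pseudocount. Next came Fabp7, which carries fatty acids in radial glia (3.90 ± 0.35), Pou5f1 (3.79 ± 0.16), the platelet chemokine Pf4 (3.63 ± 0.18), Bhlhe40, a repressor induced by low oxygen (3.44 ± 0.21), the early response gene Ier3 (3.41 ± 0.20), the transcription factor gene Bcl11a (3.40 ± 0.19), Ddit4, an inhibitor of mTOR signalling (3.38 ± 0.18), and Nxph4, a secreted ligand of neurexins (3.37 ± 0.21). All 10 were called without either wild-type library.

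The 10 largest falls were of another kind, and 6 of them belong to the list of visceral endoderm and liver genes described below: Spp2, Afp, Apoa4, Slc2a2, Fga and Apob. Spp2, a secreted phosphoprotein made in liver, was at 0.671 and 3.23 TPM in the mutant and at 43.2 and 26.5 in the wild type (-3.71 ± 0.38, adjusted p = 0.00053). The other 5 fell by 2.62 to 3.37, and Car7, a carbonic anhydrase, fell by 3.15. Sox10, the crest and glial factor, was at 2.62 and 2.36 against 20.5 and 24.7 TPM (-2.75 ± 0.17, adjusted p = 2.9e-05). Cer1, a secreted inhibitor of Nodal, Bmp and Wnt, was at 1.84 and 1.38 against 13.9 and 14.6 TPM (-2.55 ± 0.18, adjusted p = 6.2e-05). The last was the miRNA gene Mir7688, at 2.38 and 0 against 16.8 and 6.35 TPM, a gene of 56 bases whose values rest on few reads. Of these 10 falls, Sox10 and Cer1 were called without either wild-type library, and Spp2 was not called without library 153 (adjusted p = 0.082). The other 7 were called in neither of those fits.

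Hox genes of groups 6 to 13 changed in blocks along the axis. In groups 10 to 13, 9 of 10 tested genes rose and 0 fell, with a median of 2.37, beside a median of 0.05 over all genes tested. Hoxc12 and Hoxc13 were too low to be tested, and Hoxb13 and Hoxd12 passed the filter only through the mutant libraries. In groups 6 to 9, 4 of 12 fell and 0 rose, with a median of -0.40. In groups 1 to 5, 2 of 15 rose and 0 fell, a share near that of all genes (13.3% against 9.76%), with a median of 0.22. The counts for groups 10 to 13 were 6 and 0 without wild-type library 153 and 7 and 0 without 156, and for groups 6 to 9 they were 0 and 2, and 0 and 3.

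At the tail end, the Hoxa and Hoxd clusters rose together. Hoxd13 was at 39.7 and 36.7 TPM in the mutant against 5.36 and 4.5, and Hoxa13 at 18.9 and 18.8 against 2.34 and 2.42. Hoxd12 was listed at 0 in both wild-type libraries and at 7.85 and 9.12 TPM in mutant libraries, which is at least 69.8-fold higher on the mean than 3 reads in each wild-type library would give. In every case the mutant libraries lay close together and far above the wild type. Within the Hoxd cluster the difference was 1.08 ± 0.16 for Hoxd10, 2.10 ± 0.22 for Hoxd11, 3.24 ± 0.20 for Hoxd12 and 2.73 ± 0.15 for Hoxd13. Within the Hoxa cluster it was 1.05 ± 0.16 for Hoxa10, 2.19 ± 0.20 for Hoxa11 and 2.56 ± 0.16 for Hoxa13. Hoxc11 rose from 1.33 and 1.23 to 10.9 and 14.1 TPM. Its neighbour Hoxc10 was at 24.6 and 26.1 TPM in the mutant and at 22.8 and 31.2 in the wild type, where the groups overlapped (-0.07 ± 0.17, adjusted p = 0.85).

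The trunk falls lay in the Hoxb and Hoxc clusters and in Hoxa7. Hoxc8 was at 17.4 and 14.7 TPM against 93 and 62.6 (-2.18 ± 0.19, adjusted p = 0.00024). Hoxb9 was at 62.5 and 69.1 against 317 and 194 (-1.90 ± 0.21, adjusted p = 0.00081). Both wild-type libraries were high and apart from each other, with 153 above 156. Hoxc9 fell by 1.47 ± 0.17 and Hoxa7 by 0.69 ± 0.16. Hoxd8 was at 18.3 and 23.2 against 24.6 and 18.1 TPM, with no separation of the groups. Hoxa4 and Hoxa5 were the rises nearer the head: Hoxa4 was at 51.4 and 55.9 against 19.7 and 16.8 TPM (1.51 ± 0.15) and Hoxa5 at 69.6 and 72.8 against 35.4 and 31.1 (1.08 ± 0.14). Hoxb1 was at 59.5 and 50.5 against 77.7 and 69.2 TPM and did not pass (adjusted p = 0.11).

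**Figure D2:**
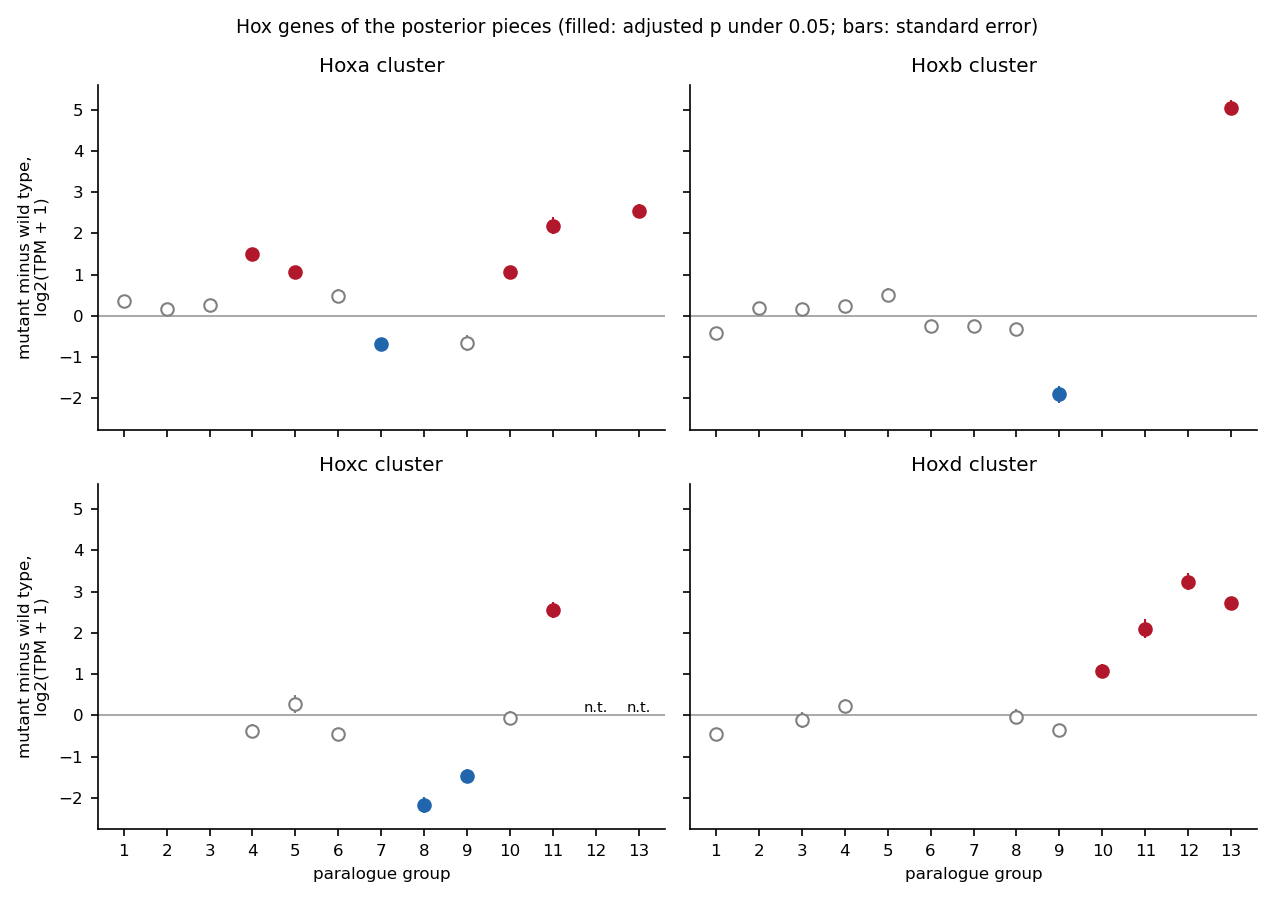
Difference of log2(TPM + 1), mutant minus wild type, for each Hox gene (y axis) against its paralogue group (x axis), 1 panel for each cluster; filled points passed the threshold, bars are standard errors, and n.t. marks genes not tested. Rises fill groups 10 to 13 in the a, b and d clusters up to 5.05 at Hoxb13, and the falls lie in groups 7 to 9, down to -2.18 at Hoxc8.

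Tail bud and axial progenitor genes were called in both directions: 4 of 27 rose and 4 fell, with a median of 0.02. Among the falls, Cdx4, a caudal factor that acts upstream of trunk Hox genes, was at 130 and 91.5 TPM against 332 and 232 (-1.34 ± 0.21, adjusted p = 0.0043). Cdx2, its paralogue, fell from 254 and 219 to 171 and 156, and Evx1 fell by 0.65 ± 0.16. Cyp26a1, which degrades retinoic acid in the tail bud, fell from 88.3 and 79.8 to 54.1 and 58.8 TPM. The third caudal gene, Cdx1, was on the other side, at 126 and 107 against 89.1 and 75.8 TPM, without passing (0.50 ± 0.15, adjusted p = 0.067). The rises were Fgf4, from 3.91 and 3.83 to 13.2 and 9.78 TPM, Mixl1, a primitive streak factor, from 5.63 and 6.98 to 18.5 and 16, the Wnt target Sp5 (0.71 ± 0.14) and Epha1 (0.55 ± 0.15). Tbxt, the brachyury gene of the streak, tail bud and notochord, was at 170 and 147 against 118 and 113 TPM (0.45 ± 0.14, adjusted p = 0.07), and Sox2 was at 151 and 154 against 115 and 118 (0.38 ± 0.13, adjusted p = 0.092). The list held 0 calls without wild-type library 153 and 1 rise without 156, and without mutant library 163 it held 8 rises and 2 falls.

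The mesoderm that leaves the tail bud was called in both directions, with small medians. In the presomitic list 3 of 22 rose and 1 fell, with a median of 0.002. Snai1, a repressor active as cells leave the epithelium, was at 129 and 137 against 73.3 and 83.7 TPM (0.75 ± 0.13). Mesp1 (0.95 ± 0.22) and Tbx6 (0.50 ± 0.13), of which Tbx6 specifies presomitic mesoderm, also rose, and Dusp4, a feedback phosphatase, fell by 0.59 ± 0.14. The master gene Msgn1 was at 137 and 126 against 110 and 85.7 TPM and did not pass (adjusted p = 0.12). Among somite genes 2 of 17 rose, a share near that of all genes (11.8% against 9.76%), with a median of -0.25. They were Twist1, a mesenchymal factor (362 and 345 against 202 and 178 TPM), and Aldh1a2, which makes retinoic acid (525 and 467 against 266 and 282). Meox1 of the early somite was at 166 and 188 against 246 and 180 TPM, so the groups overlapped (adjusted p = 0.41). Of 10 early muscle genes 1 rose and 2 fell. Eya2, a transcriptional coactivator, rose (0.74 ± 0.14), while its paralogue Eya1 fell (-0.65 ± 0.18). Without either wild-type library these 3 lists held 0 calls, and without mutant library 163 the presomitic list held 6 rises and 2 falls. The somite list held 3 rises and 1 fall without mutant library 159 and 3 rises and 2 falls without 163, and the early muscle list 3 and 3, and 2 and 1.

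**Figure D3:**
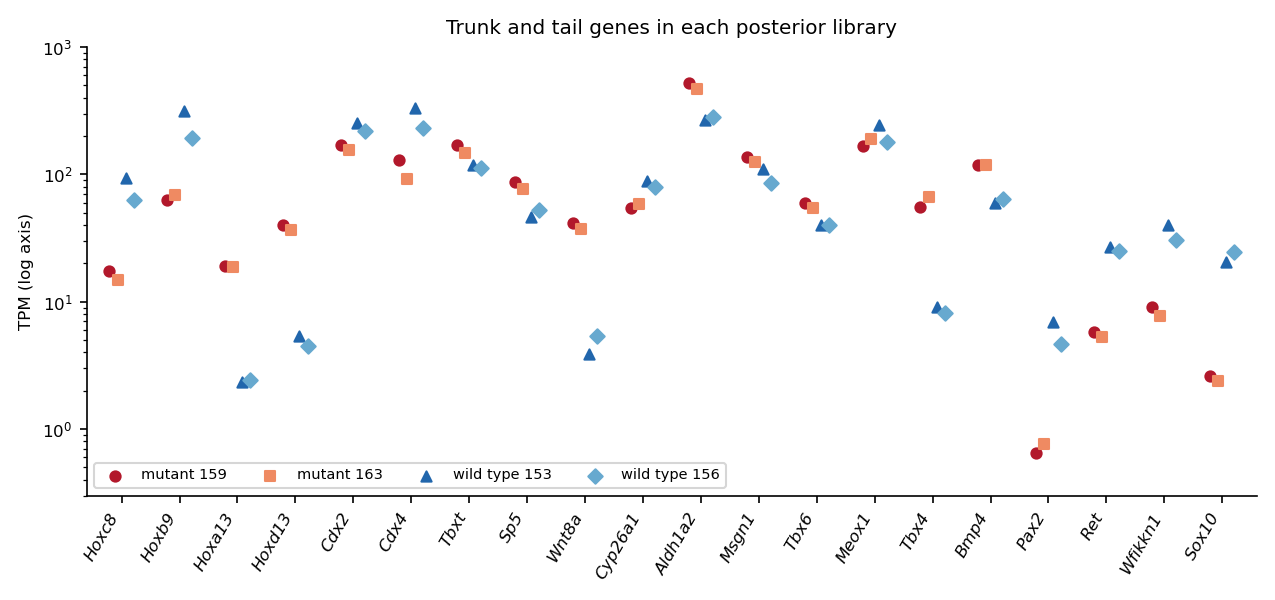
TPM on a log axis (y axis) of 20 trunk and tail genes (x axis), with 1 symbol for each posterior library. Hoxc8, Hoxb9, Cdx4, Pax2, Ret, Wfikkn1 and Sox10 are lower in both mutant libraries, Hoxa13, Hoxd13, Wnt8a and Tbx4 are higher in both, and Meox1 overlaps.

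In the notochord and node list 2 of 13 rose (15.4%, beside 9.76% of all genes called), with a median of -0.02. They were Dand5, a Nodal inhibitor at the node, from 2.95 and 3.98 to 11.3 and 10.3 TPM, and Noto, a notochord factor, from 6.54 and 11.3 to 20.5 and 18.7. Shh was at 37.6 and 36.4 against 27.3 and 32.6 TPM (adjusted p = 0.24). Noto and Dand5 were called without wild-type library 156 and neither without 153. Of 11 Nodal and left-right genes, 6 rose and 1 fell, with a median of 0.74. The ligand Nodal was at 4.57 and 3.33 against 0.577 and 1.19 TPM (1.40 ± 0.24) and its coreceptor Cfc1 at 7.04 and 4.29 against 1.94 and 1.91 (1.16 ± 0.23). The inhibitors Lefty1 (1.51 ± 0.25) and Lefty2 (0.82 ± 0.22) and the receptor Acvr1b (0.74 ± 0.13) rose with them. Lefty1 and Lefty2 passed the filter only through the mutant libraries, and the fall was that of Cer1. Without wild-type library 153 or 156 this list held 0 rises and 1 fall.

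Among secreted signals and their targets a few single genes moved far. Wfikkn1, a secreted inhibitor of Gdf11, was at 9.08 and 7.76 TPM against 39.8 and 30.5 (-1.93 ± 0.17, adjusted p = 0.00026). Gdf11, a ligand that times the trunk-to-tail transition, was at 30.5 and 31.4 against 42 and 33.3 TPM (adjusted p = 0.33). In that list 1 of 12 rose and 1 fell. Of 18 Wnt ligands 2 rose, a share near that of all genes (11.1% against 9.76%). They were Wnt8a, a ligand of the primitive streak, from 3.85 and 5.38 to 41.8 and 37.4 TPM (2.87 ± 0.18), and Wnt2, a ligand of heart and allantois, from 54.6 and 57.8 to 141 and 182 (1.50 ± 0.15). Wnt targets and antagonists held 1 rise (Sp5) and 1 fall among 22, a share near that of all genes (9.09% against 9.76%). The fall was that of the antagonist Sfrp5, at 31.9 and 39.7 against 84.5 and 93.1 TPM. Of 22 Fgf pathway genes 2 rose and 2 fell: Fgf15 (27.2 and 25.2 to 83.1 and 108 TPM) and Fgf4 rose, and Dusp4 and Etv5 (-0.82 ± 0.15), both induced by Fgf, fell. Wfikkn1 and Wnt8a were called without either wild-type library, and so was Fgf15. Wnt2 was not called without library 153, and the Fgf pathway list held 2 rises and 3 falls without mutant library 163.

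Retinoic acid genes were called in both directions, with 4 rises and 1 fall among 18. Beside Aldh1a2, the receptor Rxrg rose by 1.36 ± 0.18, and the reductase Dhrs3 rose by 0.88 ± 0.20. The binding protein Crabp1 was at 1712 and 1986 against 2725 and 2656 TPM (-0.54 ± 0.15, adjusted p = 0.053). Bmp pathway genes held 5 rises and 0 falls among 24, led by the decoy receptor Bambi (42.3 and 40.6 to 76.5 and 90.4 TPM) and the ligand Bmp4 (59.3 and 63.6 to 119 and 119). In the hedgehog pathway 3 of 15 rose, among them the target gene Gli1 (0.76 ± 0.13) and the coreceptor Boc (0.73 ± 0.14). Notch genes held 3 rises among 22, a share near that of all genes (13.6% against 9.76%). They were the targets Hes5 (1.02 ± 0.19) and Hes6 and the modifier Mfng. Across the whole family of Tgfb ligands 8 of 20 rose and 0 fell, among them Inha, Tgfb2 and Tgfb1 beside those named, and 2 of the 20 passed the filter only through the mutant. Without wild-type library 153 the retinoic acid, Bmp, hedgehog and Tgfb lists held 0 calls each and the Notch list 0, and without 156 only the Notch list held a call (1 rise). Without mutant library 159 the Bmp list held 8 rises and 1 fall and the hedgehog list 5 and 1, and without 163 the Notch list held 5 rises.

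The lateral plate and limb list held 9 rises and 1 fall among 19 genes, with a median of 0.35. Tbx4, a factor of the hindlimb and the allantois, was at 55.4 and 66.3 TPM in the mutant against 9.01 and 8.11 (2.69 ± 0.15, adjusted p = 2.2e-05). Tbx5 of the forelimb and heart was at 22.3 and 18.8 against 9.2 and 8.82 (1.10 ± 0.16). Barx1, Alx4, Tbx3, Isl1, Tcf21 and Hand2 rose by 0.53 to 1.04, and Nkx2-3 fell from 6.3 and 8.82 to 2.21 and 4.01 TPM. Pitx1, the other hindlimb factor of the list, was at 49.4 and 67.6 against 49.2 and 43.6 TPM and did not pass (adjusted p = 0.3). In the T-box family 4 of 10 rose and 1 fell, the fall being that of Tbx1 (-0.98 ± 0.17), a factor of pharyngeal mesoderm and endoderm, and 1 rise and 0 falls were called without either wild-type library. Median-of-ratios scaling left 5 rises and 0 falls in the lateral plate list, and 1 rise was called without wild-type library 153 or 156, in both cases Tbx4.

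Kidney genes fell in part. Of 18 genes of the intermediate mesoderm and kidney, 2 rose and 4 fell, with a median of -0.20. Pax2 was at 0.652 and 0.762 TPM against 6.93 and 4.69 (-1.98 ± 0.22) and Pax8 at 0.461 and 0.34 against 5.9 and 4.4 (-2.13 ± 0.22); both are early regulators of the nephric duct and passed the filter only through the wild type. The receptor gene Ret, which guides the growing duct and enteric crest, was at 5.79 and 5.31 against 26.8 and 25 (-2.04 ± 0.15, adjusted p = 7.7e-05). Emx2 fell by 1.54 ± 0.20. Among the rises, Wt1 was at 4.67 and 5.86 against 2.37 and 1.62 TPM, and the other was Hoxd11. Osr1, an early marker of the same mesoderm, was at 53.9 and 42.2 against 50.2 and 49.7 TPM, with overlap. Without library 153 the list held 0 rises and 1 fall (Ret) and without 156 it held 1 rise and 3 falls, while 3 rises and 7 falls were called without mutant library 159.

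Most calls among neural genes of the trunk were rises. Of 21 neural progenitor genes 10 rose and 2 fell, with a median of 0.55. Fabp7 was at 177 and 227 TPM against 7.42 and 20.5. All 4 tested members of the Zic family, zinc finger genes of the dorsal neural tube and tail, rose, Zic5 by 1.23, Zic1 by 0.77 and Zic2 by 0.55 among them. In the POU family 6 of 9 rose, among them Pou3f4, Pou3f3 and Pou3f2 of neural progenitors, and 2 of the 9 passed the filter only through the mutant. Without wild-type libraries 153 and 156 in turn, 1 and 1 Zic genes and 1 and 3 POU genes were called. The falls were Hes3 (-1.02 ± 0.16) and Lin28a, from 952 and 905 to 590 and 509 TPM. Sox2 and Cdh2, expressed by most neural progenitors, did not pass.

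Genes of differentiating neurons rose as well: 17 of 31 tested and 0 fell, with a median of 0.73, and 8 of the 31 passed the filter only through the mutant libraries. Neurog1, a proneural factor, was at 15.9 and 19.6 TPM against 1.67 and 2.87 (2.54 ± 0.21). Bcl11b was at 10.7 and 9.82 against 0.149 and 0.254, and Elavl3, an RNA-binding protein of neurons, at 6.35 and 4.77 against 0.741 and 1.06. The tubulin Tubb3 rose from 32.3 and 31 to 61.2 and 56.6 TPM. Markers of neurons already formed were not all higher: Stmn2 was at 8.06 and 5.82 against 8.78 and 9.37 TPM and Mnx1 of motor neurons at 8.28 and 8.85 against 13.9 and 11, neither called. Of 20 spinal cord patterning genes 6 rose, and 1 of the 20 passed the filter only through the mutant. The rises included Gsx2 and Prdm12 of dorsal interneuron progenitors and Olig1 (1.66 ± 0.24). The counts of rises for progenitors, neurons and spinal cord were 2, 3 and 1 without wild-type library 153 and 4, 8 and 1 without 156, with 1 fall, in the progenitor list, without 156.

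Guidance and channel families differed in their counts. In the Slit, Robo, netrin and Unc5 group 5 of 13 rose, with the netrin receptors Unc5a (4.55 and 5.36 to 23.7 and 23.8 TPM), Unc5c and Dcc among them. Of 20 ephrins and Eph receptors 4 rose and 1 fell, and 1 of the 20 passed the filter only through the mutant. Epha3 led the rises (1.52 ± 0.21), and Efnb3 went from 65.2 and 77.7 to 164 and 172 TPM. Semaphorins and plexins held 3 rises among 28, a share near that of all genes (10.7% against 9.76%), with a median of -0.02. In the LIM homeobox family 4 of 9 rose, and 2 of the 9 passed the filter only through the mutant. Potassium channels held 6 rises and 1 fall among 44, of which 7 passed the filter only through the mutant. Without wild-type libraries 153 and 156 in turn, the rises were 2 and 2 in the guidance group, 0 and 1 in the ephrin group, 0 and 0 among semaphorins and plexins, 0 and 0 in the LIM family and 0 and 1 among the channels. Without mutant library 163 the channels held 13 rises and 1 fall.

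Neural crest genes fell in part, with 2 rises and 5 falls among 24 and a median of 0.03. Beside Sox10, the crest specifier Foxd3 was at 2.09 and 4.09 TPM against 12.8 and 17.5 (-2.01 ± 0.25), the receptor gene Erbb3 of crest and glia fell (-0.60 ± 0.14), and so did Cdh6. Rxrg and Twist1 were the rises. The hindbrain list held 2 falls among 14 (14.3%, beside 9.76% of all genes called and 2.14% that fell). Of these, Egr2, a factor of rhombomeres, was at 1.49 and 0.573 against 7.71 and 9.92 TPM (-2.30 ± 0.25). Hoxa2 and Epha4 of the same segments did not pass, at 37.3 and 35.1 against 31.9 and 32.3 TPM and at 50.4 and 34.7 against 33.2 and 31.5. In the arch mesenchyme list 7 of 18 rose and 2 fell: among others Alx1, Alx4, Barx1, Edn1, Msx2 and Hand2 were higher, and Dlx2, at 2.12 and 2.65 against 6.12 and 7.77 TPM, and Tbx1 were lower. Sox10 was the single crest call without either wild-type library, and the hindbrain and arch lists then held 0.

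Surface ectoderm genes held 1 rise and 1 fall among 20, a share near that of all genes, with a median of 0.007. Bhlha9, a factor of the limb ectoderm, was at 2.76 and 2.47 TPM against 18.9 and 16.1 (-2.36 ± 0.17, adjusted p = 6.7e-05) and was called without either wild-type library. Tfap2c rose by 0.77 ± 0.16. Cdh1, the epithelial cadherin, was at 90.8 and 103 against 94.7 and 95.5 TPM, with overlap.

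In the gut, 3 of 16 hindgut and gut tube genes rose and 1, Cdx2, fell, with a median of 0.28. Sox17 (7.15 and 9.93 to 15.8 and 19.5 TPM), Gata6 and Gata4 rose, genes that vessels or heart also express. Of 16 pharyngeal and foregut genes, 2 rose and 3 fell, among them Ripply3 (-0.88 ± 0.20) of the pharynx. Under median-of-ratios scaling the foregut list held 0 calls and the hindgut list 1 rise and 1 fall, and without wild-type library 153 or 156 both held 0. The hindgut list held 5 rises and 1 fall without mutant library 159 and 4 rises and 5 falls without 163.

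Serum protein genes of the visceral endoderm, the outer layer of the yolk sac, were lower in the mutant and differed widely between its 2 libraries. Of 23 tested, 10 fell and 0 rose, with a median of -1.83. Their summed level was 419 TPM in mutant library 159, 1764 in mutant library 163 and 3431 and 2897 in wild-type libraries 153 and 156. Ttr, a carrier of thyroid hormone, was at 76.3 and 246 TPM against 618 and 521, and Afp at 13.8 and 66.4 against 396 and 266. Apoa1 was at 30.2 and 323 against 724 and 621 TPM and did not pass (adjusted p = 0.061). In 19 of the 23 both mutant libraries lay below both wild-type libraries (20.1% of all genes tested did). Under median-of-ratios scaling 1 fall was called. The count of falls was 0 without wild-type library 153 and 1 without 156, against 14 without mutant library 159 and 21, with 1 rise, without mutant library 163. How much yolk sac each piece carried was not tested. Alb and Ahsg, serum proteins of the later liver, were too low to be tested. The lower genes Car7, Hnf4a (2.92 and 11.1 against 26.2 and 25.2 TPM) and the apolipoprotein family, with 4 falls among 13 and 0 without either wild-type library, were likewise lowest in mutant library 159.

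Heart muscle genes separated libraries and not genotypes. The summed level of the list was 4221 TPM in mutant library 159 and 685 in mutant library 163, and 663 and 1871 in wild-type libraries 153 and 156. Myl7, an atrial myosin light chain, was at 1796 and 218 TPM against 233 and 707, and Actc1, cardiac actin, at 1382 and 153 against 213 and 661. One library of each genotype was thus high. The called members were 2 of 23, the transcription factor genes Tbx5 and Gata4, which other mesoderm also expresses, and 0 without either wild-type library. Leaving out mutant library 159 gave 2 rises and 11 falls, and leaving out mutant library 163 gave 20 rises and 0 falls. In the second heart field list 3 of 12 rose, Bmp4, Isl1 and Hand2, and Tbx1 fell, all 4 already named, and without either wild-type library none was called.

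**Figure D4:**
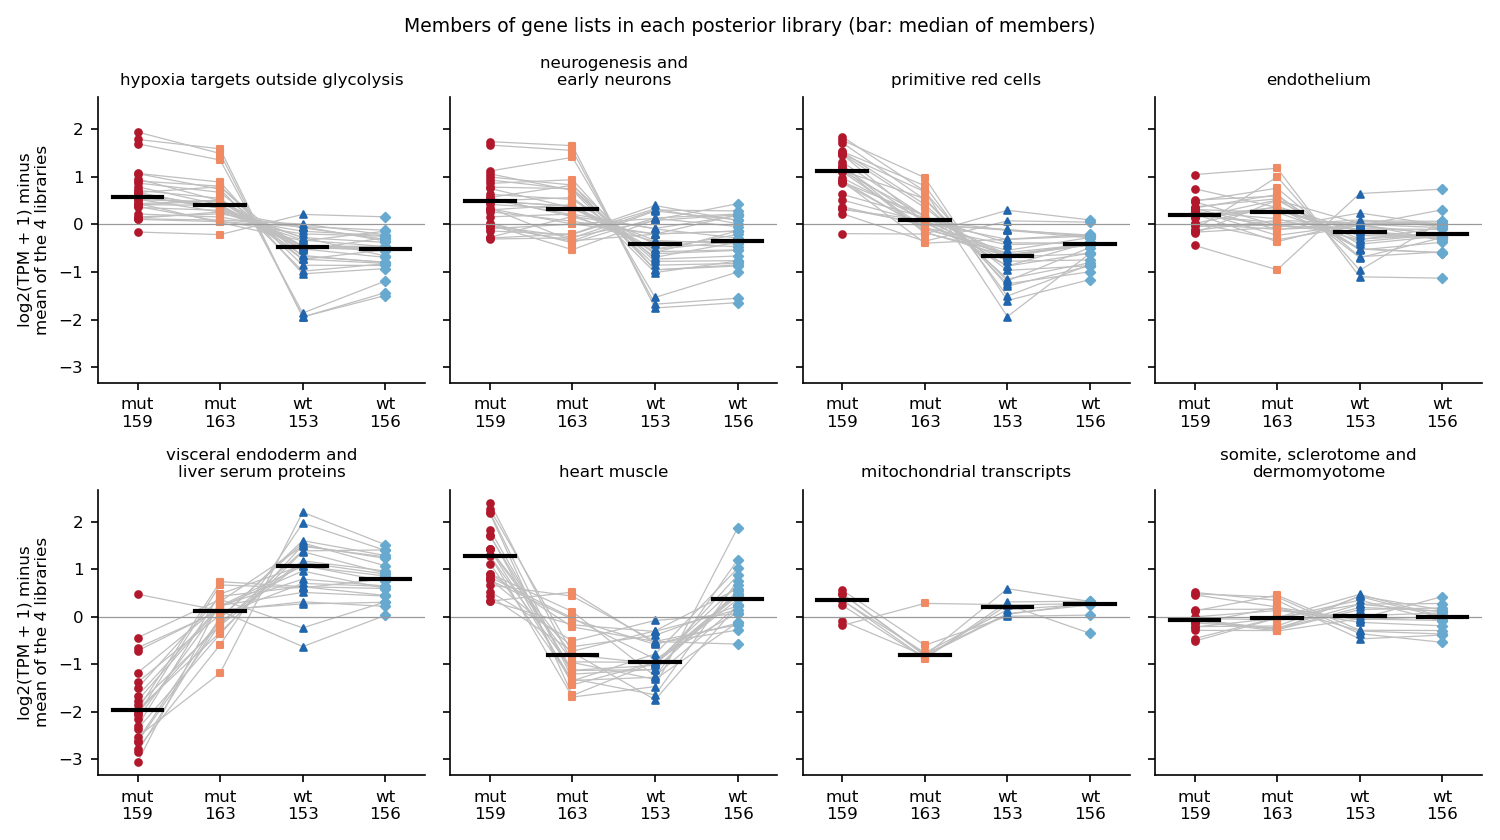
Each point is a tested member of a gene list, as its log2(TPM + 1) minus its mean over the 4 posterior libraries (y axis), for each library (x axis); grey lines join the values of a gene and black bars are medians. Hypoxia genes are higher in both mutant libraries (medians 0.59 and 0.40), heart muscle genes in mutant library 159 (1.28) and wild-type library 156 (0.36), visceral endoderm genes are lowest in mutant library 159 (-1.96), and mitochondrial transcripts in mutant library 163 (-0.81).

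Blood genes were higher in the mutant, more so in library 159. Of 27 tested red cell genes 15 rose and 0 fell, with a median of 1.08. Their summed level, nearly all globin, was 45720 and 23220 TPM in mutant libraries 159 and 163 and 6936 and 8239 in the wild type. The embryonic globin gene Hbb-y was at 16239 and 9383 TPM against 1563 and 2122 (2.76 ± 0.26, adjusted p = 0.00035), and Alas2, which starts heme synthesis, at 140 and 60.4 against 16.9 and 20.4. The erythroid factor Klf1 rose by 1.07 ± 0.26, and Gata1, at 19 and 6.81 against 4.85 and 5.63, did not pass (adjusted p = 0.11). Since Hba-a1 and Hba-a2, the adult alpha globin genes, share nearly all of their sequence, their separate values are uncertain. The list held 4 rises and 1 fall under median-of-ratios scaling, 6 rises under quantile normalization and 9 in the fit of all 8 libraries. It held 0 calls without wild-type library 153 and 5 rises without 156.

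Platelet and vessel lists also held rises. In the megakaryocyte list 7 of 10 rose, with a median of 1.28. There 6 of the 10 passed the filter only through the mutant, as did 2 of the 7 tested macrophage and blood progenitor genes. Pf4 was at 16.1 and 18.6 TPM against 0.559 and 0.395, Plek was at 6.81 and 4.57 against 0.839 and 0.761, and Itgb3, a chain of the platelet fibrinogen receptor, also rose (1.25). Outside the list, the platelet tubulin gene Tubb1 was at 6.67 and 6.11 against 0.765 and 0.961 TPM. Of 27 endothelial genes 10 rose and 1 fell, with a median of 0.40. The guidance receptor Robo4 was at 10.8 and 11.9 against 1.65 and 1.6 TPM (2.23 ± 0.17, adjusted p = 0.0001), and Pecam1 at 36 and 38.3 against 17.1 and 16.2. Etv2, which acts in vessel and blood precursors, fell from 35.9 and 38.3 to 16.3 and 11.1 TPM. The receptor Kdr was at 56.9 and 39.3 against 46.4 and 44.1 TPM, with overlap. Median-of-ratios scaling gave 5 rises and 1 fall for endothelium and 4 rises for megakaryocytes, and the counts of rises for these 2 lists were 1 and 1 without wild-type library 153 and 2 and 1 without 156. Among 21 macrophage and blood progenitor genes 7 were tested and 1, Cd93, rose (0 without either wild-type library), and the defining macrophage genes Csf1r, Cx3cr1 and C1qa were too low to be tested.

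Pluripotency genes held 7 rises and 2 falls among 18 tested, with a median of 0.45. Of the 18, 4 passed the filter only through the mutant, and 7 of the 25 on the list were too low to be tested. Pou5f1, which encodes Oct4, was at 77.2 and 62 TPM against 3.95 and 4.18 (adjusted p = 4.5e-06). Nr0b1, an X-linked nuclear receptor gene, was at 19.9 and 19.3 against 0.149 and 0.787, and Nanog at 5.05 and 3.68 against 0.42 and 0.539. Klf4, Klf5, Fgf4 and Lefty1 were the other rises. Dnmt3b, a de novo DNA methyltransferase of the epiblast, fell from 92.9 and 85.2 to 59.9 and 51.5 TPM, and Tfcp2l1 fell by 1.04 ± 0.20. Esrrb, Zfp42 and Dppa5a of the naive state were too low to be tested. Without wild-type library 153 the list held 2 rises, and without 156 it held 3.

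The promoter of Pou5f1 is shown because Gcnf is known to bind a direct repeat of the nuclear receptor motif AGGTCA, and Pou5f1 is its best known target. The sequence is from RefSeq, build GRCm38.p6, chr17:35505782-35506081, plus strand, and runs from 250 bases before to 50 after the most upstream start listed. Capitals mark the motif.
Pou5f1: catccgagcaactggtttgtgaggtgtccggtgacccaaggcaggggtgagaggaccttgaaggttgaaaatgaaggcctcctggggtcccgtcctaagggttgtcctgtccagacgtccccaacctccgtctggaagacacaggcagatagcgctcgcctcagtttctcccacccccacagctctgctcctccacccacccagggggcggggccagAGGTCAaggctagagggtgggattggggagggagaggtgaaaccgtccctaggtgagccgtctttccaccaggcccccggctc
The window held the motif once, with its first base 33 bases before the start, and not its perfect repeat, 2 copies without a spacer. Only exact copies were searched. The bases directly after the motif, aggcta, are close to it but not identical, so an imperfect repeat would not be marked. On either strand, 18.1% of 27025 genes with a promoter in the table held the motif, and 1 gene held the perfect repeat. The motif directly after TCA was found in 0.466% of the genes. Promoters matched by symbol for 72.1% of the rises and 59.6% of the falls, so shares cover only part of each set. Of those matched, 15% of the rises and 14.6% of the falls held the motif, beside 14.5% of the tested genes with a promoter.

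Germ line, timing and imprinted genes gave smaller counts. Of 20 germ line genes 7 were tested and 2 rose, Nanos3 (0.727 and 0.154 to 3.17 and 4.71 TPM) and Tfap2c, and 1 of the 7 passed the filter only through the mutant. In the Lin28 and let-7 list 1 of 12, Mycn, rose and 2 fell, Lin28a and the chromatin protein Hmga1 (595 and 578 to 411 and 424 TPM). Among 23 imprinted genes 5 rose and 1 fell, with a median of 0.24. Plagl1, a growth-regulating zinc finger gene, was at 194 and 193 TPM against 65.4 and 61 (1.60 ± 0.13, adjusted p = 0.00012), and Dlk1 at 283 and 396 against 188 and 195. Phlda2, a growth inhibitor, fell from 188 and 152 to 46.7 and 60.3 TPM. The most abundant, H19, was at 6782 and 7634 against 6259 and 5541 TPM and did not pass (adjusted p = 0.34). Of 12 DNA methylation genes Tet2 and Mbd2 rose and Dnmt3b fell. Polycomb and trithorax genes held 2 rises among 25, Jarid2 (0.76) among them, a share near that of all genes (8% against 9.76%). Plagl1 was called without either wild-type library and Phlda2 without 156, and the germ line, Lin28, methylation and Polycomb lists held 0 calls in those fits.

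Targets of hypoxia, the genes induced by Hif transcription factors when oxygen is low, rose together. Of 29 tested outside glycolysis 21 rose and 0 fell, with a median of 0.95, and 1 of the 29 passed the filter only through the mutant. In 28 of the 29 both mutant libraries were higher than both wild-type libraries (33.8% of all genes tested were). Ddit4 was at 1062 and 926 TPM against 78.7 and 113. Adm, a vasodilating peptide, was at 51.9 and 40.8 against 3.49 and 6.15 (3.05 ± 0.23), and Egln3, an oxygen sensor, at 112 and 98.9 against 25.2 and 27.3 (1.97 ± 0.14). Vegfa, which drives vessel growth, was at 61.4 and 64.8 against 32.6 and 31.8 TPM (0.95 ± 0.13). Both mutant libraries were high for each of these. Bnip3, which acts in mitochondrial clearance, rose from 32.4 and 29.7 to 83.9 and 91.3 TPM, while its relative Bnip3l was at 243 and 238 against 225 and 192 and did not pass. Of 22 glycolysis and glucose transport genes 8 rose and 0 fell, with a median of 0.47, including Ldhb (54.5 and 90.1 to 319 and 319 TPM), Pfkfb3 (1.56 ± 0.15) and the glucose transporter Slc2a1 (955 and 945 to 1644 and 1521). Ldha, the most abundant, was at 3525 and 3536 against 3140 and 2898 TPM (adjusted p = 0.4). Scaling by median-of-ratios gave 20 and 6 rises for these 2 lists, and the counts were 7 and 1 without wild-type library 153 and 9 and 2 without 156. The glycolysis list held 13 rises and 1 fall without mutant library 163.

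Promoters of Ddit4 and Bnip3, 2 of these genes, are shown with the core of the hypoxia response element, ACGTG or GCGTG on either strand, in capitals. This motif was chosen after the values were seen. They are RefSeq sequences of build GRCm38.p6, at chr10:59951721-59952020 and chr7:138909457-138909756, both on the minus strand and written 5′ to 3′ along the gene.
Ddit4: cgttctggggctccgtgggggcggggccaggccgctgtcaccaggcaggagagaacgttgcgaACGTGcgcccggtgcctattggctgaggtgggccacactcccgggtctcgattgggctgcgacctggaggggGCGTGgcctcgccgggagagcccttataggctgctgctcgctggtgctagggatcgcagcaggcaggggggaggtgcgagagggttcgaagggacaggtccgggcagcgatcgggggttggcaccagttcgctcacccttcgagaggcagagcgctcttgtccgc
Bnip3: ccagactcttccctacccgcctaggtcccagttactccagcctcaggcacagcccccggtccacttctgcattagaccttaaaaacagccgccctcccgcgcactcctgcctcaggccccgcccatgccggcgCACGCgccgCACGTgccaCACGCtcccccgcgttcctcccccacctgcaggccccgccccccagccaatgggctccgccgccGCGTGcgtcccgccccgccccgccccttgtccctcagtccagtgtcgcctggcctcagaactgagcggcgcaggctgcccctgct
Ddit4 held 2 and Bnip3 4 matches that do not overlap. Of the 21 rises of the list 18 had a promoter in the table and 17 of these held a match, beside 46.7% of all 27025 genes and 67.3% of the 10718 tested genes with a promoter. A match was held by 20 of the 22 tested list members with a promoter, whether they rose or not. Among all 859 rises with a promoter the share was 64.6%. The motif contains CG and is common in CG-rich promoters, so a match is a description only.

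Stress lists held rises beside the hypoxia targets. In the integrated stress response, the programme run by Atf4 when translation is slowed, 9 of 21 rose and 0 fell, with a median of 0.37. Chac1 was at 23.1 and 20.6 TPM against 2.79 and 2 (2.76 ± 0.18), Trib3 at 41.8 and 18.7 against 4.24 and 3.95, and the asparagine synthetase Asns at 208 and 169 against 107 and 105. Of 22 p53 targets 5 rose, among them Plk3 (4.46 and 4.86 to 22.1 and 21.9 TPM) and the cell cycle inhibitor Cdkn1a (19 and 18.1 to 32.4 and 36.2), while Bax was at 148 and 187 against 172 and 154, with overlap. Of 17 immediate early genes 6 rose, with Jun, Jund, Fos and Egr1 beside Ier3. Heat shock and folding genes held 3 falls and 1 rise among 21: the chaperones Hsph1 (-0.77 ± 0.13), Hyou1 and Hspa8 fell and Hspb1 rose, from 2.09 and 11.2 to 32.7 and 20.5 TPM. Rises without wild-type libraries 153 and 156 in turn were 1 and 2 for the stress response, 1 and 1 for p53 targets, 1 and 2 for early genes and 0 and 1 for heat shock, with 0 falls. Heat shock falls numbered 5 without mutant library 159, 5 without 163 and 5 under median-of-ratios scaling.

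Lipid droplet and fatty acid genes held 7 rises and 1 fall among 18, and 2 of the 18 passed the filter only through the mutant. Beside Cidea and Fabp7, Fabp3 rose from 1.14 and 4.67 to 28.9 and 33.4 TPM and Cpt1a, which moves fatty acids into mitochondria, from 0.475 and 0.484 to 5.46 and 8.24. Dgat2, which makes triglyceride, fell by 0.65 ± 0.14, and the coat protein Plin2 was at 82.3 and 78.2 against 64 and 60.9 TPM (adjusted p = 0.12). None of 24 cholesterol synthesis and uptake genes was called, and their differences lay between -0.16 and 0.34. The lipid list held 3 rises without wild-type library 153 and 4 without 156.

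Extracellular matrix families differed in their counts. Of 30 collagens 10 rose and 1 fell, with a median of 0.42, and 1 passed the filter only through the mutant and 1 only through the wild type. Col3a1 of loose mesenchyme was at 164 and 188 TPM against 85.2 and 77.3 (1.10 ± 0.14), all 3 tested Col6a genes rose by 0.81 to 1.17, and Col4a1 and Col4a2 of basement membrane rose by 0.70 and 0.78. Col2a1 of notochord and cartilage fell from 40.8 and 53.2 to 29.6 and 14.4 TPM. Laminins held 1 rise among 8, integrins 1 rise and 1 fall among 15, and metalloproteases 3 rises and 1 fall among 33. These shares (12.5%, 13.3% and 12.1%) were near the 9.76% of all genes tested. Of 13 prolyl and lysyl hydroxylases, enzymes that modify collagen or sense oxygen, 7 rose, among them P3h3, P4ha1, P4ha2 and Plod2, with Egln1 and Egln3 of the hypoxia list. Vim, a filament protein of mesenchyme, rose from 242 and 281 to 585 and 568 TPM. Outside the matrix, aldehyde dehydrogenases held 6 rises among 14, such as Aldh1l1 (1.48 ± 0.23) of folate metabolism, and 2 of the 14 passed the filter only through the mutant. Without wild-type library 153 or 156 the collagens held 0 calls, the hydroxylases 1 rise, Egln3, and the aldehyde dehydrogenases 0 and 1.

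Genes of DNA replication, mitosis, oxidative phosphorylation and ribosomes were seldom called. None of 26 DNA replication genes, 22 mitosis genes and 31 nuclear genes of oxidative phosphorylation passed, at medians of -0.01, -0.10 and 0.15. At an unadjusted p under 0.05 from limma each of these lists held 1 gene, and the cholesterol list held 2, beside 3827 of all 15634 genes tested. Among oxidative phosphorylation genes 1 rise was called in each of 4 alternatives: the fit of all 8 libraries, quantile normalization, the 5 TPM filter and the fit without mutant library 159, which also called 1 fall among mitosis genes. Among G1 regulators 3 of 23 rose and 1 fell: the inhibitor Cdkn1b was at 44.7 and 61.5 TPM against 23.4 and 24.7, and cyclin E1, encoded by Ccne1, fell from 201 and 173 to 95 and 105. Of 20 apoptosis genes 1, Casp6, rose (0.87). Ribosomal protein genes of the cytosol held 1 rise and 2 falls among 77 and those of mitochondria 1 rise among 77. The Zfp genes, the largest family examined, held 8 rises among 320. Without either wild-type library the G1, apoptosis, both ribosomal and Zfp lists held 0 calls. Ribosomal protein genes of the cytosol held 11 rises and 1 fall without mutant library 159 and 0 and 4 without 163. Histones held 4 rises and 10 falls among 61, but 4 and 0 under median-of-ratios scaling, 1 and 0 without wild-type library 153 and 7 and 20 without mutant library 159. Most histone transcripts lack a poly-A tail and share sequence, so their values are uncertain. Of 8 transcripts of the mitochondrial genome mt-Nd1 fell (-0.91 ± 0.24, adjusted p = 0.043), and 7 fell without mutant library 159. Their sum was 11950 TPM in mutant library 163 and 24520 to 25620 in the other 3.

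**Figure D5:**
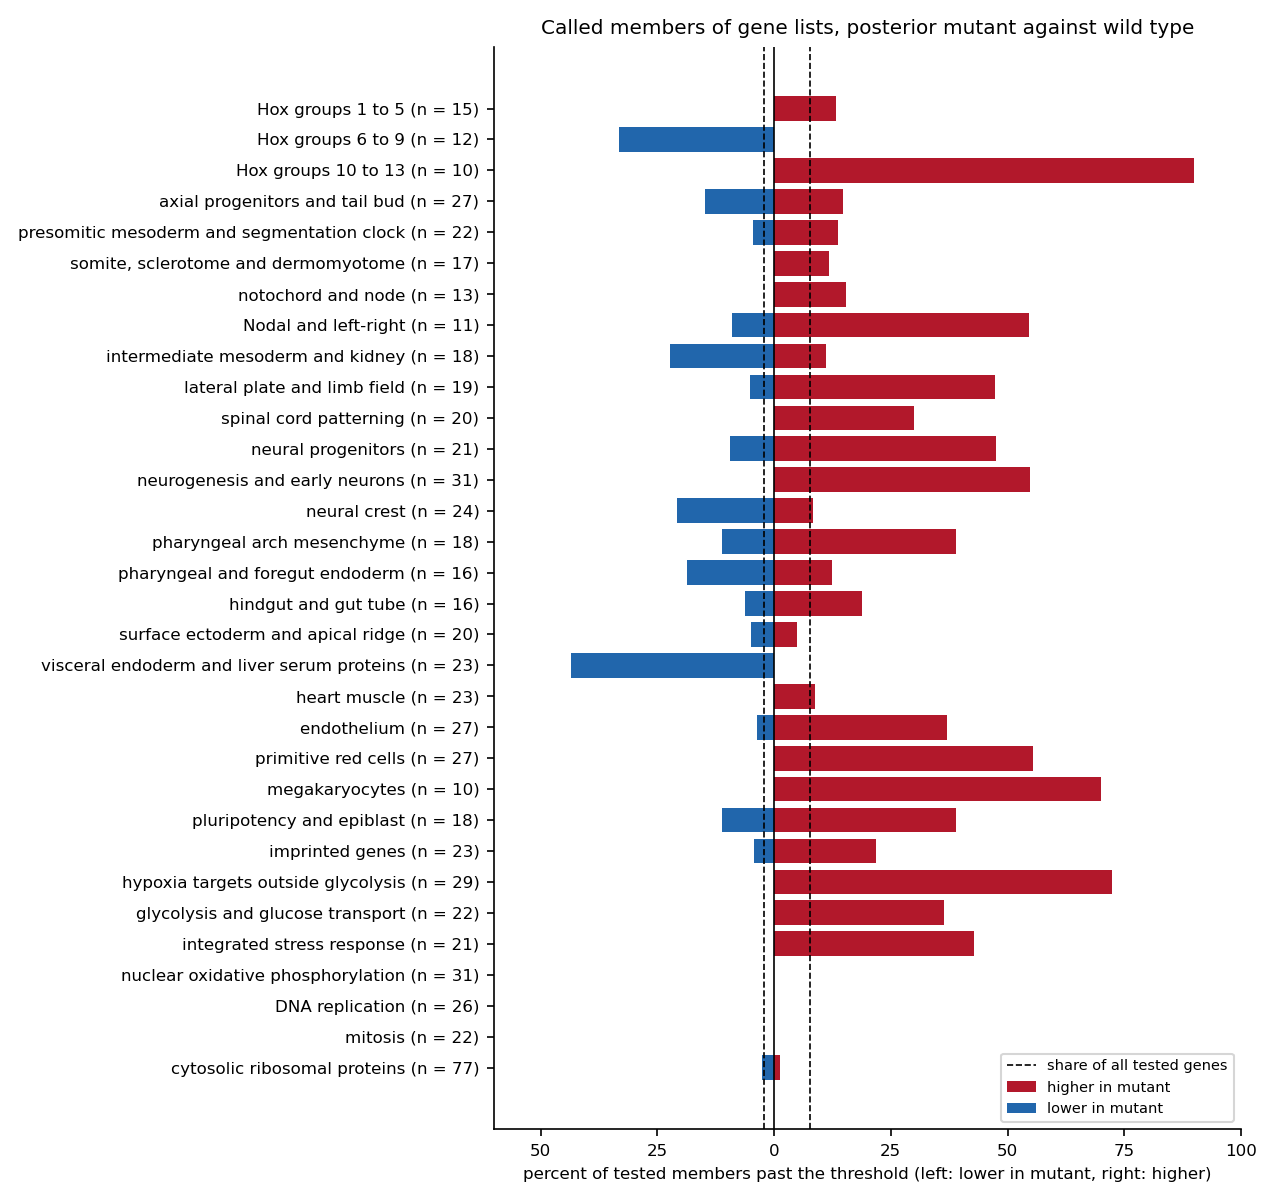
Percent of the tested members of 32 gene lists that passed the threshold, with rises to the right and falls to the left; dashed lines mark the share of all tested genes (7.62% and 2.14%). Hox groups 10 to 13 and hypoxia targets reach far to the right, as do megakaryocyte genes, of which 6 of 10 passed the filter only through the mutant. Visceral endoderm and Hox groups 6 to 9 reach furthest to the left.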

How the data were processed

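RNA of 8 libraries was measured, and 4 posterior libraries entered the comparison. Per the labels' protocols, pieces lay in RNAlater for approximately 10 days, RNA was extracted with the RNeasy micro kit, and poly-A libraries that do not mark strand were made with the TruSeq kit v2, so a gene and an antisense partner cannot be told apart. CASAVA 1.8.2, STAR and build mm10 are named in the submitters' processing notes. The sources used here do not name the tool that counted reads. TPM values, with the same sum in every library, were deposited by the authors.

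Genes with at least 1 TPM in at least 2 of the 4 libraries were tested on log2(TPM + 1) with limma 3.58.1 in R 4.3.3 (moderated test with a trend, two-sided, 2 residual degrees of freedom, Benjamini-Hochberg over all 15634 genes, threshold 0.05). The anterior libraries stayed out because trunk and tail genes are near 0 there, and the fit of all 8 libraries was an alternative. Library depth was recovered from TPM and gene length. On simulated data with 200 changed genes among 15634 for this comparison, the fit found 87.4% of the 2-fold and 99.8% of the 4-fold changes, and 4.97% of its calls were unchanged genes. The simulated spreads were drawn from the fit's own model with independent normal noise, and the changed genes lay well above the filter. These shares therefore check the code and do not measure the error or the recovery in the real libraries.

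Gene lists and members were chosen with earlier results of these data known. Genes named were Nr6a1, all Hox genes, the 10 largest rises and falls that passed with no overlap and a mean of at least 2 TPM (without predicted genes, pseudogenes, sex chromosomes and mitochondrial transcripts), and in each list up to 5 largest calls in each direction and the 4 most abundant members. A few others were named after their values were seen. Some genes that the rule names are not reported here. Alternatives were other pseudocounts, filters, scalings, fits, and leaving out each library.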

Additional observations from a re-analysis of the deposited data

Results flagged for a closer look

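Among the 20 largest changes, 4 had an effect of genotype that differed between posterior and anterior pieces in limma's test of that difference on all 8 libraries, in which 164 of 15634 genes passed (1.05%). The 20 genes were picked for large posterior differences, which favours a larger effect in posterior pieces. For trunk and tail genes near 0 in anterior pieces, the spread pooled over 8 libraries can be too small. Hoxb13 rose in posterior pieces by 5.05 more than in anterior pieces (± 0.26, adjusted p = 0.00016), where its difference was 0.00. For Cer1 the posterior minus anterior difference was -2.24 ± 0.24 (adjusted p = 0.0049), with -0.31 in anterior pieces, and for Sox10 it was -1.5 ± 0.18 (adjusted p = 0.0079), with -1.25 in anterior pieces. Pou5f1 rose in both, by 5.26 in anterior pieces, and the posterior minus anterior difference was -1.47 ± 0.23 (adjusted p = 0.021). The Pou5f1 difference did not pass without posterior wild-type library 153 (adjusted p = 0.128) or 156 (0.143), anterior mutant library 163 (0.0539) or anterior wild-type library 156 (0.0538). Sox10 did not pass without posterior wild-type library 156 (0.0632), and Cer1 without 153 (0.0604) or 156 (0.0632), or with a pseudocount of 0.1 (0.051).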

How the results depend on the processing

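Of 663 named genes 348 were called, and 13 alternatives were run. The 1526 calls became 1377 and 1479 with pseudocounts of 0.1 and 0.5, 1573 with a 5 TPM filter, 1029 with median-of-ratios scaling, 903 with quantile normalization, 2052 with all 8 libraries, 1621 with library weights, 1452 without a trend and 65 without a filter on low values, where 31293 genes were tested. Leaving out 1 library gave between 85 and 2246 calls, and without a mutant library the spread comes from the wild-type pair alone, and the reverse. The 164 calls of the difference between posterior and anterior effects became 144 with a pseudocount of 0.1 and 148 with median-of-ratios scaling, and leaving out 1 library gave between 17 and 251. Among named genes the call was lost for 314 without a filter, 124 with median-of-ratios scaling, 306 without wild-type library 153 and 266 without 156. Genes that were not called with all libraries, and were called with opposite signs when single libraries were left out, were Myl7 (-0.896 without mutant library 159, 2.14 without 163), Actc1 (-1.28 and 1.88), Tnnc1 (-0.848 and 1.99), Myh6 (-1.40 and 2.44), mt-Co1 (-0.621 and 0.536) and Myh7 (-1.89 and 1.09). Myh7 was not called without wild-type library 153 (-2.07) or 156 (1.27). The causes were not tested. Mutant and wild-type libraries share no number, so their comparison could not be paired. Anterior and posterior libraries share theirs, and the labels do not say that a number marks an embryo. Deviations of same-numbered libraries from their group means correlated over genes with r = 0.152 for mutant and 0.0298 for wild-type libraries, and same-numbered libraries had the same sex. With the number as a replicate block, a fit chosen after seeing the data, the difference between posterior and anterior effects gave 183 calls; of the 20 largest changes, Fabp7 gained (adjusted p = 0.0223) and Pou5f1 lost the call (0.0508). With 2 libraries a group, an interval for a single gene rests on the spread borrowed from all genes.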

Other observations

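Some large changes lay outside the lists, and these genes were chosen after their values were seen. Oxct1, which starts the use of ketone bodies, was at 222 and 227 TPM in the mutant (libraries 159 and 163) against 27.3 and 26.6 in the wild type (libraries 153 and 156; 3.01 ± 0.13, limma's adjusted p = 4.5e-06). The metallothionein genes Mt1, at 477 and 359 against 77.2 and 63.4 TPM, and Mt2, at 196 and 126 against 32.7 and 22, were also higher in both mutant libraries. Ckb, the brain creatine kinase, was at 204 and 202 against 22.6 and 41.6 TPM, and Gfra3, a receptor of the artemin ligand, at 75.8 and 86.3 against 10.6 and 15.5. Vrtn, known for its link to the number of vertebrae in pigs, was at 21.1 and 16 against 2.27 and 5.11 TPM (2.12 ± 0.27, limma's adjusted p = 0.0018) and was not called without wild-type library 153 (0.069).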
